A study of Mus musculus with 4 samples.

Results

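The genes described here are 52 of the 53 genes of a list of DNA replication and cell division genes, out of 12393 genes with a probe set of their own on the Affymetrix Mouse Expression 430A array. The list was drawn up by function and holds the replicative helicase, the factors that license origins, the sliding clamp and its loader, polymerases, nucleotide supply, cyclins and their kinases, mitotic kinases and motors, and the Cdkn1 inhibitors. Ccnb1 was not analysed here. Each gene is given by 1 probe set, chosen for the highest log2 signal averaged over the arrays, and 29 of the 52 genes had more than 1.

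RNA of adult mouse testis was measured on 4 arrays, 1 for each combination of 2 genotypes and 2 preparations. W/Wv males carry a pair of mutant alleles of Kit, the receptor tyrosine kinase that germ cells need to survive and divide; they were bought animals from a WB by B6 cross. XX/Sry males are XX animals with an Sry transgene, which turns the fetal gonad into a testis whose germ cells are later lost; neither their strain nor the transgene's promoter is stated in the sources used here, so strain and genotype cannot be told apart. The whole testis of each genotype was set beside its seminiferous tubules, freed of tunica and interstitial cells with collagenase (5 mg/ml, 40 min at 37 °C) and a 70 µm strainer. The sources used here state neither the number of animals behind each RNA nor whether both preparations came from the same ones.

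A dividing cell loads the MCM helicase at origins in G1 phase, copies its DNA in S phase with polymerases held on the PCNA clamp, and separates its chromosomes in M phase under the control of cyclin B with Cdk1, Plk1 and the Aurora kinases. Many of these genes are switched on together, in S phase largely through E2F factors and in G2 and M phase through promoter elements read by the DREAM complex, so that their RNA is low in resting cells. In the adult testis most dividing cells are germ cells, the spermatogonia and the meiotic spermatocytes, whereas Sertoli cells stop dividing before adulthood. Leydig cells, macrophages and endothelial cells between the tubules divide slowly.

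The labels were checked first. Kit itself had signals of 256 (W/Wv) and 892 (XX/Sry) in whole testis and 139 (W/Wv) and 569 (XX/Sry) in tubules. Eif2s3y, on the Y chromosome, had 795 (W/Wv) and 9.5 (XX/Sry) in whole testis and 580.3 (W/Wv) and 28.2 (XX/Sry) in tubules, and Xist, the RNA of X inactivation, 131 (W/Wv) and 3099 (XX/Sry) in whole testis and 76.7 (W/Wv) and 1002 (XX/Sry) in tubules, so each array matched its genotype label. The Sertoli cell genes Sox9 (538 to 1182) and Fshr (528 to 938) were above background on every array, and the steroid synthesis gene Cyp11a1 of Leydig cells was lower in tubules than in whole testis in both genotypes, with 5952 (W/Wv) and 9195 (XX/Sry) in whole testis and 1172 (W/Wv) and 1566 (XX/Sry) in tubules. Median signals of all probe sets lay between 156.8 and 183, and a background bound, the highest signal of 27 bacterial control probe sets, between 46.1 and 76.3. With 1 array per group there is no replicate check. Folds are ratios of single arrays, written "at least" where the dimmer signal lay below the bound of its array, and a gene counts as called where it differed at least 2-fold the same way in both pairs by the deposited signals.

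Replication and cell cycle genes were highest on the W/Wv whole testis array. This array had the highest of the 4 signals for 40 of the 52 genes (76.9%), against 33.3% of all genes, and the lowest for 1, Ccnd1. The XX/Sry tubule array had the lowest signal for 25 genes. On the arrays in the order W/Wv whole testis, XX/Sry whole testis, W/Wv tubules and XX/Sry tubules, 51, 45, 47 and 40 of the genes lay above the background bound, and 37 did so on all 4. Because the genotype ratio in whole testis and the preparation ratio in W/Wv share that W/Wv whole testis array, a high or low signal on it enters both.

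**Figure D1:**
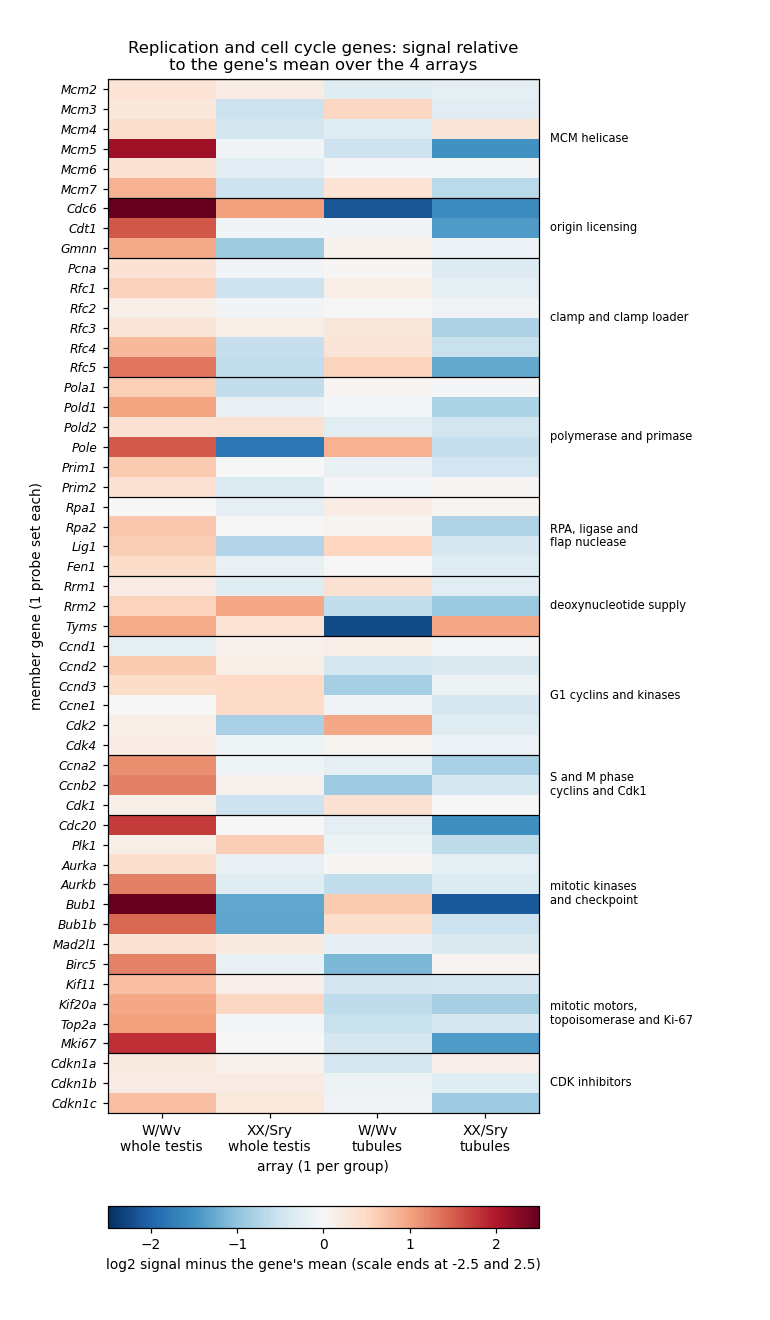
Signals of the 52 genes on the 4 arrays, as the log2 signal minus the mean of the gene over the arrays (colour; the scale ends at -2.5 and 2.5), with genes in rows by role and arrays in columns. The W/Wv whole testis column is the reddest, and it holds the highest signal of 40 genes.

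Replication and mitosis genes had lower signals in XX/Sry than in W/Wv whole testis. The ratio of XX/Sry to W/Wv was below 1 for 46 of the 52 genes in whole testis, against 56.4% of all genes, and for 39 in tubules, against 50.1%. The median log2 ratio was -0.67 in whole testis and -0.31 in tubules, beside -0.10 and 0.00 over all genes. Lower in whole testis by at least 2-fold were 21 genes (40.4%; 13.4% of all genes) and at least 2-fold higher 0 (8.10% of all genes); in tubules 10 were lower (10.3% of all genes) and 2 higher (11.2% of all genes). Both ratios lay below 1 for 34 genes (65.4%, against 30.4% of all genes) and above 1 for 1, Ccnd3. In bulk RNA, fewer cells of a kind and less RNA per cell cannot be told apart.

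The genes called lower in XX/Sry in both preparations were Mcm5, Mcm7, Cdt1, Rfc5, Pole, Cdc20, Bub1 and Mki67, 8 of 52 (15.4%) where 3.22% of all genes were called lower. None was called higher, against 1.98% of all genes. Set against the background bound, the 2-fold difference in both preparations held for 4 of them, Mcm7, Rfc5, Pole and Cdc20. Bub1b, Lig1 and Cdk2 stood just outside the rule, with 1 ratio past 2-fold and the other between 1.93-fold and 1.97-fold, while Mcm5, Mcm7 and Mki67 stood just inside it, with tubule ratios of 2.01-fold to 2.02-fold.

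**Figure D2:**
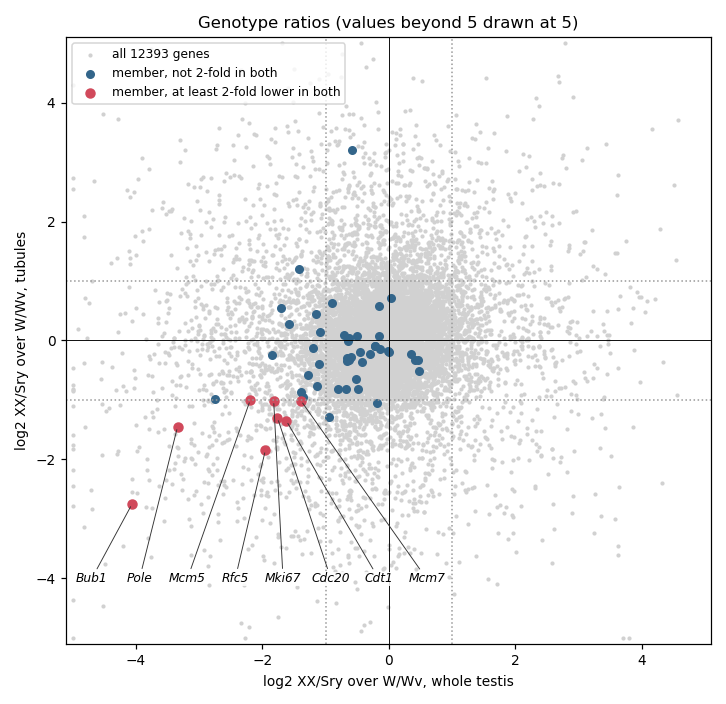
Genotype log2 ratio (XX/Sry over W/Wv) in whole testis (x axis) against that in tubules (y axis) for all 12393 genes (grey) and the 52 genes described (blue; red where at least 2-fold lower in both). The 8 red points lie in the lower left, and 34 of the 52 points lie below 0 on both axes.

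Germ cell markers were also lower in whole testis of XX/Sry by the deposited signals. The difference was 2-fold or more for 7 of 10 spermatogonial, 6 of 11 meiotic and 6 of 10 spermatid genes, against 13.4% of all genes. Tex11 and Piwil1, counted among the meiotic genes, lay below the background bound on every array. The 10 spermatogonial markers measured had summed signals of 4072 (W/Wv) and 2330 (XX/Sry) in whole testis and 1981 (W/Wv) and 2246 (XX/Sry) in tubules, and 10, 5, 8 and 5 of them lay above the background bound. The 11 meiotic markers summed to 1831, 619.5, 615 and 722 in the same order (6, 2, 3 and 4 above the bound), and the 10 spermatid markers to 4411, 2053, 1853 and 2556 (9, 4, 4 and 4 above it). Ddx4, the germ cell helicase, had 305 (W/Wv) and 0.9 (XX/Sry) in whole testis and 69.2 (W/Wv) and 1.8 (XX/Sry) in tubules, and Tnp1, a transition protein of spermatids, 814 (W/Wv) and 4.8 (XX/Sry) in whole testis and 1.5 (W/Wv) and 29.5 (XX/Sry) in tubules; no marker was at 0. These are the lowest whole testis ratios of their lists, and 3 markers ran the other way by over 2-fold there, Kit (1.80), Odf2 (1.53) and Gapdhs (1.60, log2). Without Kit, which is mutated in W/Wv, the spermatogonial sums were 3815 (W/Wv) and 1438 (XX/Sry) in whole testis and 1842 and 1676 in tubules, so the order in tubules turned. Without Odf2, the brightest spermatid marker on 3 arrays, the spermatid sums were 3962, 760, 340 and 592. The median log2 genotype ratios of the 3 lists were -1.93, -1.26 and -2.52 in whole testis and -0.15, 0.46 and 0.54 in tubules. The 15 Sertoli markers had medians of -0.03 and -0.28, and the 7 Leydig markers 0.63 and 1.34. The part of germ cells in the ratios of replication and cell cycle genes was not tested.

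The replicative helicase is a ring of the 6 MCM proteins, Mcm2 to Mcm7, and all 6 genes had whole testis ratios below 1 (median log2 -0.86). Mcm7 had signals of 2302 (W/Wv) and 878 (XX/Sry) in whole testis and 1596 (W/Wv) and 790.4 (XX/Sry) in tubules; both W/Wv signals were above both XX/Sry signals, and XX/Sry was 2.62-fold lower for whole testis and 2.02-fold lower for tubules. Its 3 other probe sets also ran lower in XX/Sry, by log2 ratios from -0.67 to -1.13 in whole testis and from -0.08 to -1.50 in tubules. Mcm5 had 494 (W/Wv) and 108 (XX/Sry) in whole testis and 79.4 (W/Wv) and 39.6 (XX/Sry) in tubules; W/Wv whole testis stood far above the other arrays. It was 4.57-fold lower in XX/Sry for whole testis and at least 1.30-fold lower for tubules, where its XX/Sry signal was below the bound (2.01-fold by the deposited signals). Mcm3 was lower in XX/Sry by the same log2 ratio, -0.81, in both preparations. For Mcm4 and Mcm6 the whole testis ratios were -0.90 and -0.64 and the tubule ratios 0.63 and -0.01, and Mcm2 had -0.15 and 0.08.

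Origin licensing needs Cdc6 and Cdt1, which bring the helicase to the origin, and is held back after G1 by geminin, the product of Gmnn, which binds Cdt1. All 3 genes were lower in XX/Sry whole testis (median log2 -1.70). Cdt1 had 354 (W/Wv) and 116 (XX/Sry) in whole testis and 115 (W/Wv) and 44.9 (XX/Sry) in tubules, highest in W/Wv whole testis and below the bound in XX/Sry tubules; it was 3.06-fold lower in XX/Sry for whole testis and at least 1.88-fold lower for tubules. Its 2 dimmer probe sets, of which 1 was below the bound on every array, shared the whole testis direction (-1.15 and -1.87) and ran the other way in tubules (0.39 and 1.33). Gmnn had 772 (W/Wv) and 215 (XX/Sry) in whole testis and 424 (W/Wv) and 358 (XX/Sry) in tubules, 3.59-fold lower in XX/Sry for whole testis and 1.18-fold lower for tubules. Cdc6 was above the bound on the W/Wv whole testis array only (81.1), with 25.0, 2.8 and 4.1 on the others.

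Pcna, the sliding clamp that holds polymerases on DNA and also serves in repair, had 3327 (W/Wv) and 2480.3 (XX/Sry) in whole testis and 2664 (W/Wv) and 2073 (XX/Sry) in tubules, which is 1.34-fold and 1.28-fold lower in XX/Sry. The clamp is opened by replication factor C, made of Rfc1 to Rfc5, and all 5 loader genes had ratios below 1 in both preparations. Rfc5 had 307 (W/Wv) and 79.6 (XX/Sry) in whole testis and 179 (W/Wv) and 49.9 (XX/Sry) in tubules. Its XX/Sry signals lay under both W/Wv signals, 3.86-fold lower for whole testis and at least 2.94-fold lower for tubules. In whole testis and tubules, in that order, Rfc4 was 2.61-fold lower and 1.82-fold lower, Rfc1 2.15-fold lower and 1.32-fold lower, Rfc3 1.14-fold lower and 2.07-fold lower, and Rfc2 1.16-fold lower and 1.07-fold lower. Other Rfc1 probe sets had log2 ratios of -0.04 and -0.52 in whole testis and of -1.0 and -0.98 in tubules. The sizes for Rfc1 thus depend on the probe set.

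Among the polymerases, Pole, the catalytic subunit of the leading strand polymerase epsilon, stood apart with 318 (W/Wv) and 31.4 (XX/Sry) in whole testis and 201 (W/Wv) and 73.6 (XX/Sry) in tubules. Both W/Wv signals were above both XX/Sry signals, and XX/Sry was at least 4.17-fold lower for whole testis and 2.73-fold lower for tubules. Pold1, the catalytic subunit of the lagging strand polymerase delta, was 2.20-fold lower for whole testis and 1.70-fold lower for tubules. A dimmer Pold1 probe set had log2 ratios of -2.98 and -1.08, past 2-fold in both preparations. Its XX/Sry whole testis signal (35.2) was below the bound, and the size of the Pold1 difference depends on the probe set. Pold2, the accessory subunit, had 500.3 (W/Wv) and 505 (XX/Sry) in whole testis and 324 (W/Wv) and 282 (XX/Sry) in tubules and did not differ 2-fold in either preparation. Pola1, the catalytic subunit of polymerase alpha, was 2.30-fold lower for whole testis and 1.09-fold lower for tubules. The primase genes Prim1 and Prim2, which make the RNA primers, had whole testis log2 ratios of -0.66 and -0.70 and tubule ratios of -0.30 and 0.09.

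Lig1, the ligase that joins Okazaki fragments, had 191 (W/Wv) and 74.7 (XX/Sry) in whole testis and 181 (W/Wv) and 93.9 (XX/Sry) in tubules, 2.55-fold lower in XX/Sry for whole testis and 1.93-fold lower for tubules. Rpa1 and Rpa2 encode subunits of the protein that coats single stranded DNA, and Fen1 the nuclease that trims Okazaki fragments. Rpa1 had 1389 (W/Wv) and 1193 (XX/Sry) in whole testis and 1592 (W/Wv) and 1480.1 (XX/Sry) in tubules, which spans less than 2-fold, and Rpa2 and Fen1 were 1.25-fold to 1.77-fold lower in XX/Sry. Rrm1, the large subunit of ribonucleotide reductase, had 533 (W/Wv) and 374 (XX/Sry) in whole testis and 598 (W/Wv) and 382 (XX/Sry) in tubules; both XX/Sry signals were below both W/Wv signals, 1.43-fold lower and 1.57-fold lower. The small subunit gene Rrm2 gave no settled genotype direction: the probe set used had 205 (W/Wv) and 272 (XX/Sry) in whole testis and 91.1 (W/Wv) and 73.0 (XX/Sry) in tubules, while another had log2 genotype ratios of -1.92 and -2.60. Tyms, for thymidylate synthase, passed the bound only in XX/Sry tubules, at 62.5.

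The 6 genes of G1 phase had a median log2 genotype ratio of -0.13 for whole testis and -0.23 for tubules, beside -0.75 and -0.34 for the 28 replication genes. Of the 6, 0 were called, where 3.22% of all genes were called lower and 1.98% higher. With so few genes, 0 calls do not set the group apart. The D cyclins carry growth signals into the cycle by activating Cdk4 and Cdk6. Ccnd1 had 280.1 (W/Wv) and 357 (XX/Sry) in whole testis and 372 (W/Wv) and 318 (XX/Sry) in tubules, and Ccnd2 763 (W/Wv) and 539 (XX/Sry) in whole testis and 360.1 (W/Wv) and 378 (XX/Sry) in tubules. Ccnd3 had 984 (W/Wv) and 1015 (XX/Sry) in whole testis and 403 (W/Wv) and 657 (XX/Sry) in tubules, highest in whole testis of both genotypes. Their genotype log2 ratios lay between -0.50 and 0.71. Cdk4 had 2298 (W/Wv) and 1862 (XX/Sry) in whole testis and 2120.4 (W/Wv) and 1806 (XX/Sry) in tubules, which spans less than 2-fold. Ccne1, for the cyclin E that starts S phase with Cdk2, had genotype log2 ratios of 0.47 and -0.32.

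Cdk2, the partner of cyclins E and A, which is also needed for meiosis, had the lowest genotype ratios of the 6. Its signals were 1060.4 (W/Wv) and 549 (XX/Sry) in whole testis and 1882 (W/Wv) and 775 (XX/Sry) in tubules, so that each XX/Sry signal was below both W/Wv signals, 1.93-fold lower for whole testis and 2.43-fold lower for tubules. It was higher in tubules than in whole testis in both genotypes.

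Of the cyclins of S and M phase, Ccna2 had 319.5 (W/Wv) and 132 (XX/Sry) in whole testis and 119.8 (W/Wv) and 80.4 (XX/Sry) in tubules, 2.42-fold lower in XX/Sry for whole testis and 1.49-fold lower for tubules. Ccnb2 was 2.22-fold lower for whole testis and 1.37-fold higher for tubules. Their kinase Cdk1 had 2154 (W/Wv) and 1362 (XX/Sry) in whole testis and 2495 (W/Wv) and 1974 (XX/Sry) in tubules, 1.58-fold lower and 1.26-fold lower in XX/Sry.

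Mitotic kinases, checkpoint genes and the chromosomal passenger Birc5 had a median log2 ratio of -1.49 in whole testis, next to origin licensing the lowest of the 11 role groups, with 7 of 8 genes below 0 and 5 at least 2-fold lower. Cdc20, which activates the anaphase promoting complex, had 638 (W/Wv) and 189 (XX/Sry) in whole testis and 162 (W/Wv) and 65.7 (XX/Sry) in tubules; it was 3.38-fold lower in XX/Sry for whole testis and 2.47-fold lower for tubules. A further Cdc20 probe set gave log2 ratios of -0.52 and -0.34, so the size of the Cdc20 difference depends on the probe set. Bub1, a kinase of the spindle checkpoint, had 203 (W/Wv) and 12.2 (XX/Sry) in whole testis and 47.2 (W/Wv) and 7.0 (XX/Sry) in tubules, at least 2.66-fold lower for whole testis of XX/Sry; in tubules its W/Wv signal did not reach the bound of the XX/Sry tubule array (61.0), so no fold is given. Its other probe set was below the bound on 3 arrays and read higher in XX/Sry whole testis (42.7 against 2.2). Bub1b was at least 2.88-fold lower in whole testis. Mad2l1, another checkpoint gene, had 762 (W/Wv) and 692 (XX/Sry) in whole testis and 514 (W/Wv) and 462 (XX/Sry) in tubules, with genotype log2 ratios of -0.14 and -0.15. Aurka, Aurkb and Plk1, kinases of spindle assembly and chromosome alignment, were dim, with signals of at most 125 on any array by the probe sets used. Another Aurkb probe set had 132 (W/Wv) and 5.9 (XX/Sry) in whole testis, with log2 genotype ratios of -4.49 and, in tubules, -1.41. It was above the bound on the W/Wv whole testis array only.

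Birc5, for survivin, had 178 (W/Wv) and 66.7 (XX/Sry) in whole testis and 34.6 (W/Wv) and 79.4 (XX/Sry) in tubules. It was 2.67-fold lower in XX/Sry for whole testis and at least 1.30-fold higher for tubules, and with 1 array per group the difference between the preparations was not tested.

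Mki67, which encodes the Ki-67 antigen used to count cycling cells, was above the bound only on the W/Wv whole testis array, with 215 (W/Wv) and 60.8 (XX/Sry) in whole testis and 45.6 (W/Wv) and 22.6 (XX/Sry) in tubules, at least 2.82-fold lower for whole testis of XX/Sry. Both of its tubule signals were below their bounds, so its call in tubules rests on signals near background. Top2a, the topoisomerase that untangles sister chromosomes, had 347 (W/Wv) and 164 (XX/Sry) in whole testis and 116 (W/Wv) and 129 (XX/Sry) in tubules, 2.12-fold lower in XX/Sry for whole testis and 1.11-fold higher for tubules. The spindle motor genes Kif11 and Kif20a had whole testis log2 ratios of -0.63 and -0.46.

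The CDK inhibitors, which restrain the kinases of the cycle, differed less than 2-fold between genotypes in both preparations by the probe sets used. Cdkn1a, for p21, had 417 (W/Wv) and 376 (XX/Sry) in whole testis and 262 (W/Wv) and 390.5 (XX/Sry) in tubules, and Cdkn1b, for p27, 399 (W/Wv) and 396 (XX/Sry) in whole testis and 317 (W/Wv) and 280.4 (XX/Sry) in tubules. Cdkn1c, for p57, had 153 (W/Wv) and 109 (XX/Sry) in whole testis and 85.9 (W/Wv) and 48.6 (XX/Sry) in tubules. Their genotype log2 ratios lay between -0.82 and 0.58. Of the 3, 0 were called (3.22% of all genes were called lower and 1.98% higher), which with so few genes does not set them apart. A dimmer Cdkn1b probe set had 144 (W/Wv) and 65.0 (XX/Sry) in whole testis, a log2 ratio of -1.15, and 0.76 in tubules, so for Cdkn1b the size in whole testis depends on the probe set.

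**Figure D3:**
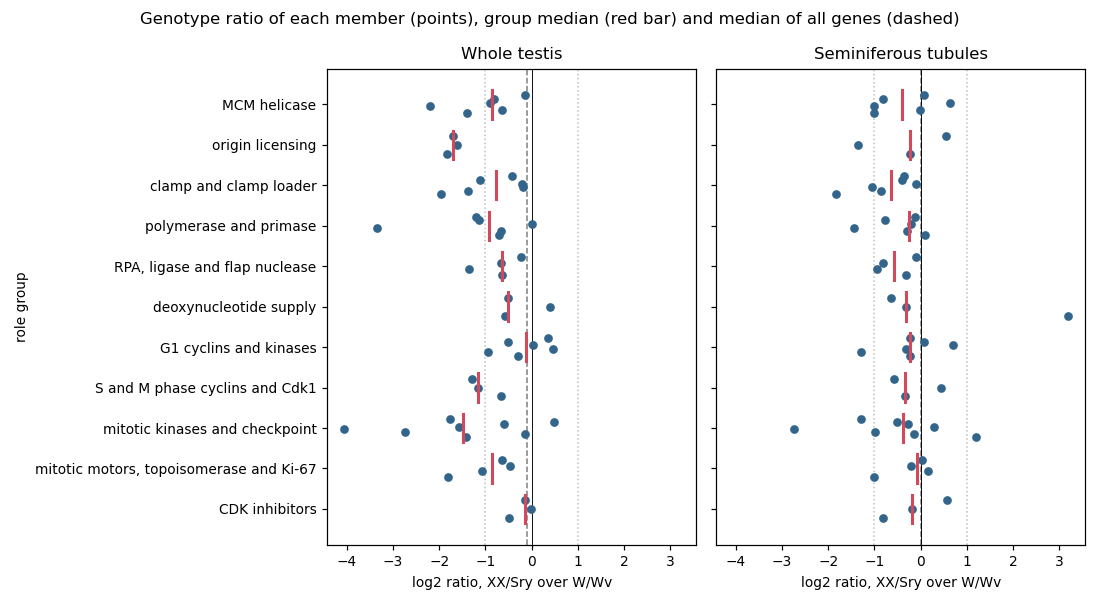
Log2 genotype ratios (XX/Sry over W/Wv; x axis) of each gene (points) by role group (rows), in whole testis (left) and tubules (right), with the median of the group (red bar) and of all genes (dashed line); dotted lines mark 2-fold. In whole testis the medians run from -1.70 for origin licensing to -0.13 for G1 genes, and in tubules all 11 lie between -0.63 and -0.08.

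**Figure D4:**
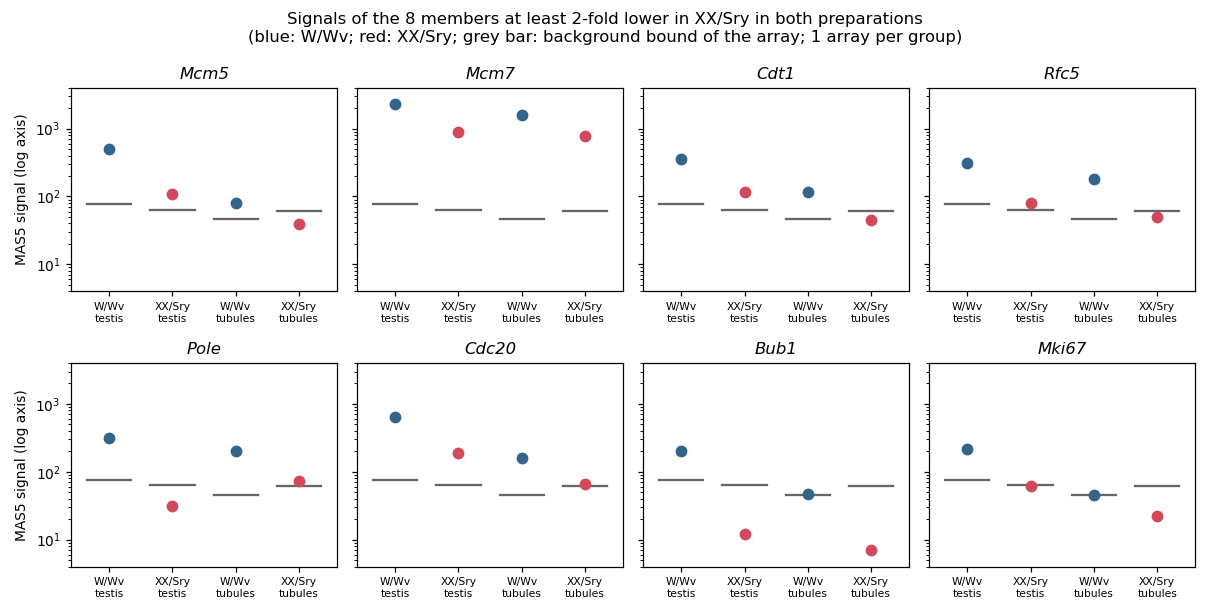
MAS5 signals (log axis) on the 4 arrays for the 8 genes called lower in XX/Sry, with the background bound of each array as a grey bar. Mcm7 and Cdc20 lie above the bound on every array, and the other 6 genes have at least 1 array below it.

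The promoters of the genes called lower are shown because these genes are known to be driven through shared elements. Windows of 250 bases before the transcription start, from RefSeq on build GRCm38.p6, were searched on both strands for TTGGCGC or TTCGCGC (E2F type), TTTGAA (type of the cell cycle homology region, CHR) and CCAAT (NF-Y type). Of the 52 genes, 41 had a window, 48 windows in all. CCAAT was in 60.4% of them, against 34.7% of 12566 windows of all array genes, TTTGAA in 18.8% against 11.5%, and the E2F type in 14.6% against 5.01%. Of the 8 genes called lower, 7 had a window. Those of Mki67, Cdc20, Mcm5 and Bub1, chosen after the matches were seen to show the different motifs, follow, 5′ to 3′ in the direction of the gene and ending at the base before the start, with every match in capitals (overlapping matches merge).
Mki67 (chr7:135716380-135716629, minus strand): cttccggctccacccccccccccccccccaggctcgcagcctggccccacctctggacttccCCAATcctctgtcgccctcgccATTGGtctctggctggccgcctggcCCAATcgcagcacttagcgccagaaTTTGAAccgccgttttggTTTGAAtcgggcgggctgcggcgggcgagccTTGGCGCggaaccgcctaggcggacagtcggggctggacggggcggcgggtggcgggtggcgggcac
Cdc20 (chr4:118437344-118437593, minus strand): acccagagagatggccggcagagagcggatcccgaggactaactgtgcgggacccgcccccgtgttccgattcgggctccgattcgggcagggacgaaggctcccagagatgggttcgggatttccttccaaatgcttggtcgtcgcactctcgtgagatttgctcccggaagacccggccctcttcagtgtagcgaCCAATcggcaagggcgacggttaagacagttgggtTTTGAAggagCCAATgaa
Mcm5 (chr8:75109259-75109508, plus strand): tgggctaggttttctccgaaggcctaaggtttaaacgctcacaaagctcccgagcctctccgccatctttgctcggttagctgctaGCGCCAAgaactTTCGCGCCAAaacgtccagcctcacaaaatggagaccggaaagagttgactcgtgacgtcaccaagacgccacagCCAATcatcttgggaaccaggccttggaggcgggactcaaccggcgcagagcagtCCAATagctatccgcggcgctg
Bub1 (chr2:127831860-127832109, minus strand): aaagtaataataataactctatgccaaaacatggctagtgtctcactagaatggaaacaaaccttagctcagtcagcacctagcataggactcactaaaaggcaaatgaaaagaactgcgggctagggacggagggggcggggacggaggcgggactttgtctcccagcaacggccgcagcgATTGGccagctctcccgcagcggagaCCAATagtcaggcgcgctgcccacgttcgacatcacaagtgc
Mki67 held 3 CCAAT matches, 2 TTTGAA matches and 1 E2F match. Cdc20 held 2 CCAAT matches with a TTTGAA between them. Mcm5 held 3 E2F matches, 2 of them overlapping, and 2 CCAAT matches, and Bub1 held 2 CCAAT matches. The windows of Mcm7 held CCAAT matches only, and those of Rfc5 and Cdt1 held no match to these letters. A match is a description of the sequence, and binding was not measured.

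The mitotic genes among the 52 had lower signals in isolated tubules than in whole testis. The ratio of tubules to whole testis was below 1 for 46 of the 52 genes in W/Wv (58.4% of all genes) and for 34 in XX/Sry (51.0% of all genes), with median log2 ratios of -0.66 and -0.30 beside -0.15 and -0.02 over all genes. In W/Wv 18 genes were at least 2-fold lower (18.3% of all genes) and 0 higher (7.70% of all genes); in XX/Sry 9 were lower (14.1% of all genes) and 1 higher (9.23% of all genes). The 15 mitotic genes had medians of -1.58 and -0.56, and the 28 replication genes -0.57 and -0.08. A wider set of 43 other mitosis genes had a median of -0.56 (W/Wv) and of 0.17 (XX/Sry), and in XX/Sry 26 of the 43 were higher in tubules.

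Lower in tubules in both genotypes were Mcm5, Cdc6, Cdt1, Rrm2, Cdc20, Kif20a and Mki67, 7 of 52, against 5.74% of all genes, and 0 genes were higher, against 1.32%. Mcm5, Cdt1, Cdc20 and Mki67 were among the genes called lower in XX/Sry too, 4 of 52, where 86 of all 12393 genes had both calls. All 4 had their highest signal on the W/Wv whole testis array, which enters both calls, so the calls are not independent. Cdc20 was 3.94-fold lower in tubules of W/Wv and 2.88-fold lower in those of XX/Sry, and its second probe set had log2 ratios of -1.38 and -1.20. Rrm2 was 2.25-fold lower and 3.72-fold lower, and here its 3 probe sets ran the same way in both genotypes, from -1.05 to -2.28. Kif20a, a motor of cytokinesis, had 160.1 (W/Wv) and 116 (XX/Sry) in whole testis and 52.6 (W/Wv) and 45.8 (XX/Sry) in tubules, 3.04-fold lower in tubules of W/Wv and at least 1.82-fold lower in those of XX/Sry. Set against the background bound, 2 of the 7, Cdc20 and Rrm2, were 2-fold lower in both genotypes.

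By the probe sets used, Mcm3, Rpa1, Rrm1, Cdk2 and Cdk1 had higher signals in tubules than in whole testis in both genotypes. They are 9.62% of the 52 genes, against 24.9% of all genes, and all 5 stayed under 2-fold. The other Rpa1 probe set was lower in tubules (log2 -0.07 in W/Wv and -0.65 in XX/Sry). Another Mcm3 probe set was lower too (-0.05 and -0.08), so for Rpa1 and Mcm3 the direction depends on the probe set. Cdk2 was 1.78-fold higher in tubules of W/Wv and 1.41-fold higher in those of XX/Sry, Cdk1 1.16-fold higher and 1.45-fold higher, and Rpa1 1.15-fold higher and 1.24-fold higher. The direction of Rrm1 in XX/Sry (0.03) is within the shift that scaling makes, 0.11 on the log2 scale. All 3 D cyclins and Cdkn1b had W/Wv ratios within 2.44-fold by the probe sets used. Ccnd3 was 2.44-fold lower in tubules of W/Wv and 1.54-fold lower in those of XX/Sry, and Ccnd2 2.12-fold lower and 1.43-fold lower. Another Ccnd2 probe set, above the bound on all 4 arrays, had log2 ratios of -1.28 (W/Wv) and -2.36 (XX/Sry). The dimmer Cdkn1b probe set had -1.97 and -0.06, so these sizes depend on the probe set.

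Markers of cells between the tubules moved with the preparation as well. The 9 macrophage markers summed to 12360 (W/Wv) and 16320 (XX/Sry) in whole testis and 4818 (W/Wv) and 3626 (XX/Sry) in tubules, and the 7 Leydig markers to 38040, 61240, 10680 and 24140; all of the latter were above the bound on every array, and 8 of 9 of the former in tubules. Medians of spermatogonial markers were -1.33 (W/Wv) and -0.44 (XX/Sry), and of meiotic markers -1.97 and 0.10. Lymphocyte markers, near background, had -0.57 and -0.76, while endothelial markers had 0.37 and 0.55. The part of these cells in the preparation ratios was not tested.

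**Figure D5:**
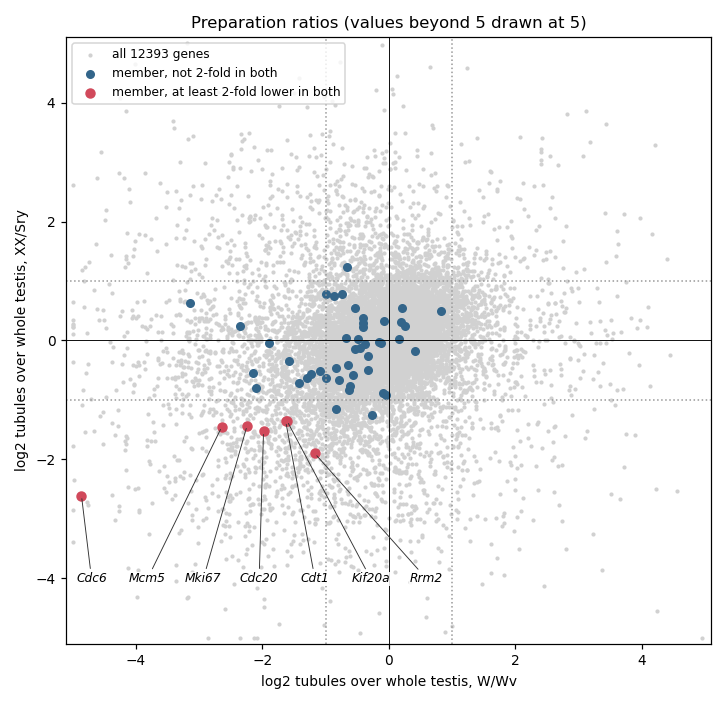
Preparation log2 ratio (tubules over whole testis) in W/Wv (x axis) against that in XX/Sry (y axis) for all 12393 genes (grey) and the 52 genes described (blue; red where at least 2-fold lower in both). The 7 red points lie in the lower left, with Cdc6 farthest out, whose tubule signals were below the background bound.

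The 4 arrays leave 1 residual degree of freedom for an additive fit of genotype and preparation, tested with limma over 22626 probe sets. Its error combines the disagreement between the pairs of a gene with a variance trend over all probe sets (9.979 prior degrees of freedom). The standard errors thus mostly reflect that trend. Mcm3, with a log2 genotype ratio of -0.81 in both preparations, still had a standard error of 0.31. The fit called 0 of the 52 genes in either comparison at an adjusted p under 0.05, where it called 0.150% of all probe sets for genotype and 1.22% for preparation. At an unadjusted p under 0.05 it placed 16 genes lower and 0 higher in XX/Sry (8.74% of all probe sets in either direction), and 11 lower and 1 higher in tubules (13.9% of all probe sets). Nearest to the threshold was Mcm7 for genotype, with a log2 difference of -1.20 ± 0.25 (SE), adjusted p = 0.11 by limma, lower in XX/Sry in 2 of 2 preparations. Cdk2 followed with -1.12 ± 0.25 (SE), adjusted p = 0.162 by limma. For preparation it was Cdc20, with -1.75 ± 0.42 (SE), adjusted p = 0.0832 by limma, lower in tubules in 2 of 2 genotypes. The fit was also run over the 19106 probe sets above the bound on at least 1 array. There limma called 53 probe sets lower and 132 higher in XX/Sry, and 473 lower and 193 higher in tubules. Of the 52 genes, 2 were among those lower in XX/Sry, Mcm7 (adjusted p = 0.0418) and Pole (adjusted p = 0.0308). Among those lower in tubules were also 2, Cdc20 (adjusted p = 0.0138) and Mcm5 (adjusted p = 0.0248).

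A wider list of 107 replication, G1 and mitosis genes held 95 that were measured. Of these, 8 (8.42%) were called lower in XX/Sry (3.22% of all genes) and 0 higher, and 7 (7.37%) lower in tubules, near the 5.74% of all genes, and 0 higher. The tubule to whole testis ratio had a median log2 of -0.36 (W/Wv) and of 0.03 (XX/Sry), and in XX/Sry 44 of the 95 were below 1 and 51 above. The whole testis genotype ratio was below 1 for 75 of the 95 (56.4% of all genes), with medians of -0.97 over 43 mitosis genes, -0.29 over 29 replication genes and -0.17 over 23 genes of G1 control. Cdc7, the kinase that fires origins, was the only gene called lower in XX/Sry whose brighter signal reached the array median in both preparations; it had 388 (W/Wv) and 189 (XX/Sry) in whole testis and 337 (W/Wv) and 163 (XX/Sry) in tubules, 2.06-fold lower in XX/Sry for whole testis and 2.07-fold lower for tubules, with a log2 difference of -1.04 ± 0.37 (SE), adjusted p = 0.423 by limma.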

How the data were processed

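The authors deposited array intensity values on a linear scale, named MAS5 in the submitters' processing notes and made with Microarray Suite 5.0 per the labels' design text. The trimmed mean signal was 500.2 on every array, so arrays had been scaled before deposit; target and detection calls are not stated in the sources used here. No further normalisation was applied. The array held 22690 probe sets, of which 64 were controls. The platform's annotation gave 1 gene to 20380 probe sets, several to 691 and none to 1555; multi-gene probe sets were not used. Probe sets whose names end in x_at or s_at, among them those used for Mcm3, Mcm7, Rrm2 and Cdc20, may bind related transcripts.

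Ratios were taken between single arrays, XX/Sry over W/Wv and tubules over whole testis, and called at 2-fold or more in both pairs, which for genotype is the rule stated in the design text. Where the dimmer signal lay below the bound, the brighter one was divided by whichever bound of the pair was higher. The additive fit used limma 3.58.1 in R 4.3.3 (two-sided, variance trend, 9.979 prior degrees of freedom, Benjamini-Hochberg adjustment over 22626 probe sets); it takes the arrays as independent and was tested on simulated data. Named with all values were called genes, in each role group the gene of highest mean signal and that of largest mean genotype ratio, and all D cyclins and Cdkn1 inhibitors. The members, lists and rules were chosen with earlier results of these data known. Alternatives covered scaling, an offset, the bound, probe set choice, the fold threshold and the fit. Having 1 array per group limits precision throughout.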

Additional observations from a re-analysis of the deposited data

Results flagged for a closer look

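The deposited signals of Birc5 ran in opposite directions between the preparations: XX/Sry was lower by 2-fold or more in whole testis and higher by 2-fold or more in tubules, a double ratio (tubules over whole testis) of 2.61 on the log2 scale. Its W/Wv tubule signal of 34.6 lay below the background bound of 46.1, and the difference was not tested.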

How the results depend on the processing

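The direction of the median ratios of the 52 genes was the same under every alternative run. Scaling moved the median of all genes by up to 0.22 (W/Wv preparation ratio, median centring). The median preparation ratio of the 52 genes became -0.44 in W/Wv and -0.19 in XX/Sry after median centring (all genes 0.07 and 0.09). With 50 added to every signal it was -0.56 and -0.20 (all genes -0.10 and -0.01). With signals below the background bound set to it, the median was -0.66 in W/Wv (all genes -0.32). In XX/Sry it was then -0.14, near the -0.07 of all genes. Of the 8 genes called lower in XX/Sry, 2 (Rfc5 and Pole) were called with 50 added and 4 with signals set to the bound. With the mean of all probe sets of a gene, 5 were called. Of these 5, Mcm5, Rfc5, Pole and Mki67 have 1 probe set each, so averaging could not change their calls. Mcm7 was the only called gene with several probe sets that kept the genotype call. Of the 7 called lower in tubules, 1 (Cdc20) was called with 50 added and 2 with signals set to the bound. At a 1.5-fold threshold 15 genes were lower in each comparison, and at 3-fold 2 and 1. The shares of all genes at these thresholds and settings are not given here, so these counts have no background to be read against. Rfc5 and Pole kept the genotype call, and Cdc20 the preparation call, under all 5 alternatives of scaling, offset, bound and probe set. For Rfc5 and Pole the probe set alternative could change nothing. Mcm5, Cdt1, Bub1 and Mki67 each lost the genotype call under 3 of the 5. Single log2 genotype ratios changed sign for Bub1 in whole testis (0.11) and Cdt1 in tubules (0.12) when probe sets were averaged. There dimmer probe sets of these genes ran the other way. With signals set to the bound, Bub1 (0.37) and Mki67 (0.40) changed sign in tubules. The Mki67 value is the ratio of the 2 array bounds (61.0 in XX/Sry and 46.1 in W/Wv). The Bub1 value sets the XX/Sry bound against the W/Wv signal of 47.2. Neither is a ratio of 2 measured gene signals. Among 290 mean ratios of the named genes under alternatives, 252 kept call and sign, 29 lost a call with the sign kept, and 9, none of them called, changed sign. With averaged probe sets these were Bub1 (preparation, -1.45 to 0.43), Rrm2 (genotype, 0.04 to -0.90), Top2a (genotype, -0.46 to 0.09), Cdkn1a (preparation, -0.31 to 0.15) and Rpa1 (preparation, 0.25 to -0.05). With signals set to the bound they were Cdc6 (genotype, -0.57 to 0.03) and Pole (preparation, 0.28 to -0.23), and after median centring Gmnn and Cdk4 (preparation, to 0.10 and 0.09).

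Over all probe sets, limma called 9 lower and 25 higher in XX/Sry and 221 lower and 54 higher in tubules. Without the variance trend it called 0 in each comparison and direction (6.58% and 8.67% of probe sets had an unadjusted p under 0.05). After quantile normalisation it called 19 lower and 57 higher in XX/Sry, and 265 lower and 86 higher in tubules. With dim probe sets left out it called 53 lower and 132 higher in XX/Sry, 473 lower and 193 higher in tubules, and 2 of the 52 genes lower in each. Replicates could not be paired, because each group has 1 array and no replicate number. The only pairing is in the additive fit, which takes preparation as a block for genotype and genotype as a block for preparation. With 1 array per group none was left out. Background limits the genes near or below the bound, among them Cdc6, Tyms, Aurkb, Bub1 and Mki67.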
